A study of Homo sapiens with 9 samples.

Results

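HERPUD1 and 8 further genes of endoplasmic reticulum (ER)-associated degradation were followed in MDA-MB-231 cells after knockdown of the zinc transporter ZIP7. The 9 genes, HERPUD1, SYVN1, SEL1L, DERL1, DERL2, DERL3, EDEM1, OS9 and SELENOS, were chosen by name, for their place in this pathway, from the 58395 gene identifiers of the count files. They were read beside a longer list of 94 genes of the same pathway, in which they are included. Both lists were chosen with earlier results of these data known, so counts and medians over them describe the listed genes only.

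ER-associated degradation removes proteins that fail to fold in the ER. Lectins and mannosidases such as OS9 and EDEM1 pick out the client, a membrane complex built around the ubiquitin ligase HRD1 (encoded by SYVN1), its partner SEL1L and the derlins carries it across the membrane and tags it, and the ATPase VCP, recruited in part through SELENOS, pulls it into the cytosol for the proteasome. HERPUD1, a membrane protein with a ubiquitin-like domain, joins the HRD1 complex and is itself short-lived, and its gene is a widely used readout of ER stress. ZIP7, encoded by SLC39A7, is a zinc transporter of the ER and Golgi membranes that releases zinc into the cytosol.

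MDA-MB-231 is a triple-negative breast cancer cell line, grown here in DMEM with serum and antibiotics. The cells were transfected with a nontargeting control siRNA (siNC) or with one of a pair of siRNAs against ZIP7 (siZIP7_1 and siZIP7_2). Total RNA was taken 96 h later. The paper lists ZIP7_1 as a Horizon and ZIP7_2 as a Qiagen siRNA, so sequence and supplier cannot be told apart between them. There were 3 libraries for each siRNA, 9 in all, and 24153785 to 30454419 reads per library fell on genes. All groups share the cell line, the transfection and the time, and the labels do not say whether the 3 libraries of a group came from separate cultures, so p-values measure only the spread between these libraries, which may be technical. SLC39A7 was at 321, 343 and 322 CPM (reads scaled to a common library size, with TMM factors) in the siNC libraries, at 35.4, 32.9 and 38.6 CPM with siZIP7_1 and at 20.5, 19.5 and 17.6 CPM with siZIP7_2, that is 10.9% and 5.84% of the control level. The mesenchymal marker VIM averaged 5529, 2687 and 2896 CPM in siNC, siZIP7_1 and siZIP7_2 libraries. With it, 6 markers of such a line summed to 9343 to 9990, 6089 to 6431 and 6841 to 7116 CPM. In the same order AXL averaged 1911, 1738 and 1005 CPM and CAV1 484, 404 and 181 CPM. The rest did not fall with both siRNAs: CD44 averaged 816, 465 and 1793, EGFR 671, 565 and 890, and KRT18 247, 371 and 189 CPM. Of 5 hormone receptor and luminal markers, PGR had at most 2 and ESR1 at most 15 counts in any library, while CDH1 (0.363 to 4.52 CPM), FOXA1 (2.29 to 4.93 CPM) and GATA3 (8.31 to 16.6 CPM) were low but present. CDH1 averaged 0.466, 4.18 and 0.998 CPM in the same order of groups. ERBB2, listed as a receptor not amplified in such a line, was clearly present at 56.7 to 91.5 CPM. It averaged 74.2, 88 and 59.3 CPM in that order. Of markers of other cells, CD3E and DCN had at most 2 counts in any library, while the sum of 3 leukocyte markers was 1.68 to 2.87, 1.31 to 1.60 and 9.08 to 12.2 CPM in siNC, siZIP7_1 and siZIP7_2 libraries, in the last nearly all of it CD14, and that of 4 fibroblast markers was 5.71 to 6.62, 15.2 to 17.8 and 12.7 to 15.8 CPM, mostly PDGFRB. Reads outside annotated genes made up 7.43% to 8.28% of siNC libraries, 7.80% to 9.62% of siZIP7_1 libraries and 9.99% to 11.5% of siZIP7_2 libraries, mitochondrial reads were also highest with siZIP7_2 (3.27% to 3.88% of counted reads against 2.26% to 2.65% with siNC), and the part of these shares in the results was not tested.

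The sequences before the start sites of HERPUD1, SYVN1 and SEL1L are shown because these genes of one complex moved in different ways. They are the RefSeq promoter windows of GRCh38.p14, read along the gene's strand and ended before the outermost start that GENCODE release 29 gives for the gene. Capitals mark letters that match a searched motif, and each line gives the gene and its bases.

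HERPUD1: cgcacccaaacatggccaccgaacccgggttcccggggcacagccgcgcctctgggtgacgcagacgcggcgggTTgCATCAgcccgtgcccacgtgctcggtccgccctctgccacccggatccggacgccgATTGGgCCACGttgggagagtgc

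SYVN1: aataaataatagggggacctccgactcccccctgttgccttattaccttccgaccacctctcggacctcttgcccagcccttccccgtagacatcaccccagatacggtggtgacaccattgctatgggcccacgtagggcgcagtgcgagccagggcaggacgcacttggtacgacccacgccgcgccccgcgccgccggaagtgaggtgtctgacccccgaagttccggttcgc

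SEL1L: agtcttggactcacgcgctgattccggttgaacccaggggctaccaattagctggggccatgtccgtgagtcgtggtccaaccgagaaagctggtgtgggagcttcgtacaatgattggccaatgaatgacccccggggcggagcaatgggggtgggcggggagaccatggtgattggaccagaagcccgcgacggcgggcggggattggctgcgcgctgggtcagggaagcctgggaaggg

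The HERPUD1 window is chr16:56931892-56932047 on the plus strand (156 bases), the SYVN1 window chr11:65134534-65134769 on the minus strand (236 bases) and the SEL1L window chr14:81533862-81534103 on the minus strand (242 bases). All 3 lie outside the annotated gene, immediately upstream of it. The motifs searched, on both strands of the whole 300-base RefSeq window, were the ER stress elements ERSE (CCAAT, 9 bases, CCACG) and ERSE-II (ATTGG, 1 base, CCACG), to which ATF6 and XBP1 are known to bind, the unfolded protein response element UPRE (TGACGTGG), and the amino acid response element CARE (TGATGNAA), to which ATF4 binds with a C/EBP partner.

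HERPUD1 held ERSE-II, ATTGGGCCACG, at chr16:56932025-56932035, bases −117 to −107 from the RefSeq start, and a CARE on the opposite strand at bases −176 to −169, with no overlap between them. ERSE-II was found in 19 of 35116 promoters (0.0541%), CARE in 1270 (3.62%) and UPRE in 256 (0.729%). SYVN1, SEL1L, OS9, EDEM1, DERL2 and SELENOS held none of the 4 motifs in this window, and DERL1 and DERL3 had no entry, so that 1 of 7 genes with an entry carried a match. Among the 73 genes of the longer list with an entry, ERSE-II was also read in SDF2L1, a luminal partner of the chaperone BiP, as CGTGGACCAAT (the opposite strand, chr22:21642114-21642124). ERSE occurred in 27 promoters of 35116 (0.0769%), and in this list in HSPA5, which encodes BiP, in HSP90B1 and in CRELD2, for example as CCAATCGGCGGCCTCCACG in HSPA5 (chr9:125241391-125241409, gene on the minus strand). UPRE was found in 4 of the 73, TXNDC11, UBE2J1, DNAJC10 and VCP. A match of letters is a description of the window and not a binding site. SYVN1, with none of the motifs, rose 1.78-fold with siZIP7_1 and with siZIP7_2, beside 1.74-fold and 3.79-fold for HERPUD1. SEL1L, also with none, was at 0.62-fold and 1.3-fold in the same order. The part of the motifs in these changes was not tested.

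HERPUD1 (ENSG00000051108, chr16:56932048-56944863, plus strand) rose with each ZIP7 siRNA, and more with siZIP7_2. In the siNC libraries it was at 86.4, 84.7 and 85.4 CPM, in the siZIP7_1 libraries at 145, 145 and 157 CPM, and in the siZIP7_2 libraries at 335, 305 and 331 CPM. The 3 groups did not overlap, and the control libraries lay within 2 CPM of each other. The group means, in the order siNC, siZIP7_1 and siZIP7_2, were 85.5 ± 0.889, 149 ± 7.14 and 324 ± 16.5 CPM (SD, n = 3). Tested by edgeR (quasi-likelihood, Benjamini-Hochberg adjustment over 16761 genes), the log2 fold change was 0.80 ± 0.050 (SE) with siZIP7_1 (adjusted p = 1.71e-14) and 1.92 ± 0.050 with siZIP7_2 (adjusted p = 2.41e-23), or 1.74-fold and 3.79-fold. The difference between the siRNAs was itself past the threshold, at a log2 value of 1.12 ± 0.049 (adjusted p = 1.59e-18, 95% interval 1.02 to 1.22). In these bulk libraries a rise in every cell cannot be told apart from a larger rise in some of them. From the highest fold change down, HERPUD1 stood at place 1185 of 16761 tested genes with siZIP7_2 and at place 2588 with siZIP7_1.

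SYVN1 (ENSG00000162298, chr11:65121780-65134533, minus strand), the ligase of the complex, rose to the same level with both siRNAs. It was at 106, 107 and 102 CPM with siNC, at 193, 180 and 188 CPM with siZIP7_1 and at 196, 175 and 191 CPM with siZIP7_2. Both siZIP7 groups lay above the control libraries and overlapped each other. The log2 fold change was 0.83 for either siRNA against siNC, 1.78-fold (adjusted p = 4.76e-15 with siZIP7_1 and 3.64e-15 with siZIP7_2). Between the siRNAs it was 0.0029 ± 0.048, with a 95% interval of −0.10 to 0.10. FAU, MRPL49 and a microRNA gene overlap 10.1% of the exonic length of SYVN1.

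SEL1L (ENSG00000071537, chr14:81471549-81533861, minus strand), the scaffold that holds HRD1 together with its client receptors, moved in opposite directions. The siNC libraries were at 136, 132 and 150 CPM, the siZIP7_1 libraries at 86.9, 91.1 and 81.1 CPM and the siZIP7_2 libraries at 184, 177 and 184 CPM. No library of one group reached the range of another. SEL1L fell by 0.69 on the log2 scale with siZIP7_1 (adjusted p = 1.45e-12) and rose by 0.38 with siZIP7_2 (adjusted p = 1.11e-07), and the siRNAs differed from each other by 1.07 ± 0.052 (adjusted p = 2.98e-17). The ligase and its scaffold were therefore both higher with siZIP7_2 and were split with siZIP7_1.

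**Figure D1:**
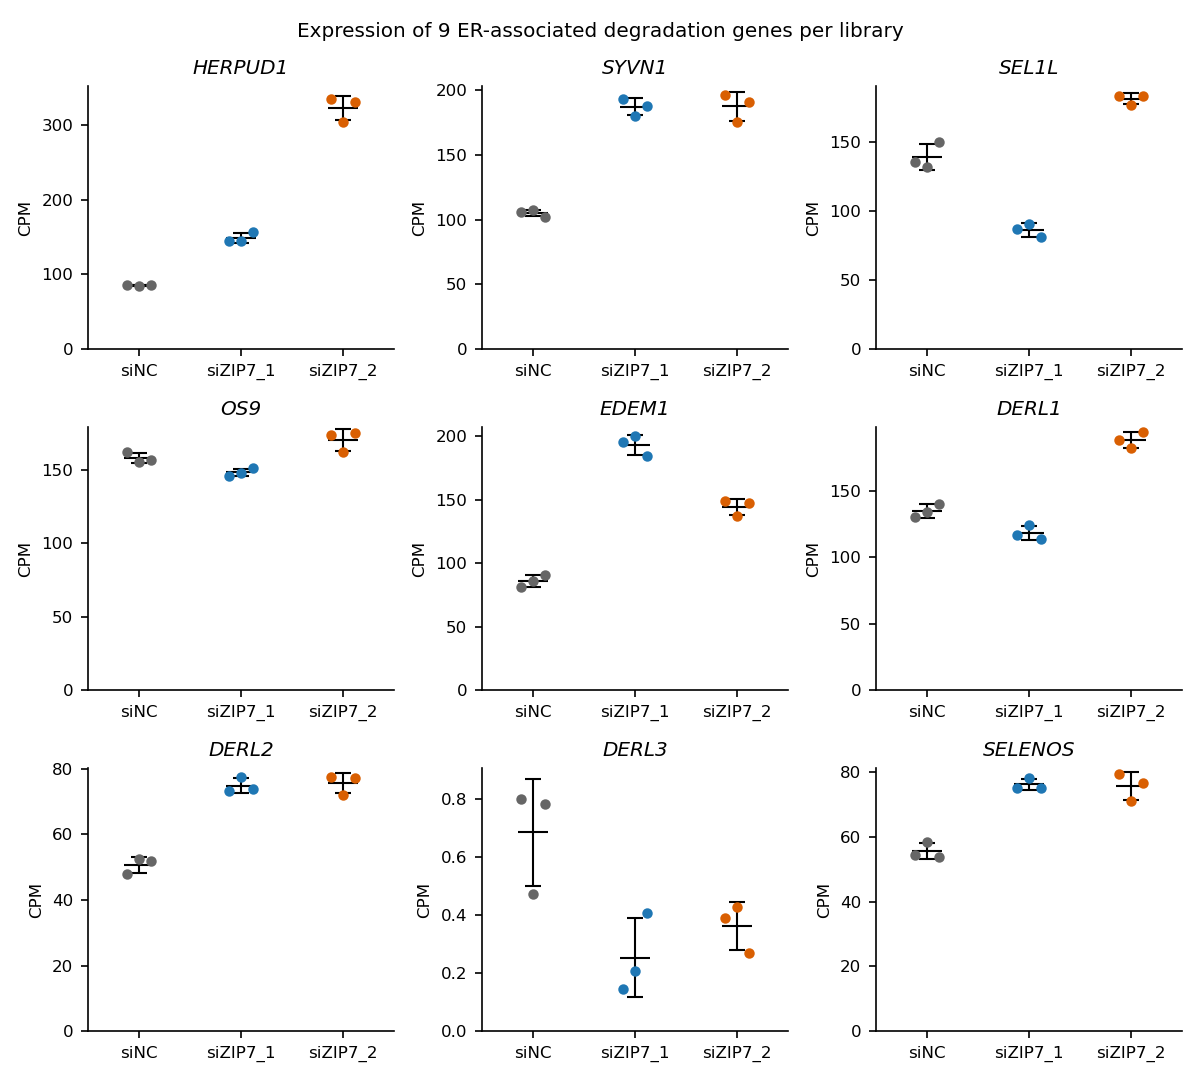
Expression of the 9 genes in each library, in CPM on a linear axis from 0, by siRNA group (3 points per group; the long bar is the mean and the whiskers are 1 SD). HERPUD1 reaches 305 to 335 CPM with siZIP7_2 against 84.7 to 86.4 CPM with siNC, SYVN1 sits at one level with both ZIP7 siRNAs, and SEL1L and DERL1 lie below siNC with siZIP7_1 and above it with siZIP7_2.

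Of the lectins that recognise clients by their trimmed glycans, EDEM1 rose clearly and OS9 differed little. EDEM1 (ENSG00000134109, chr3:5187646-5219957, plus strand), a mannosidase-like protein, was at 81.0, 85.6 and 90.3 CPM with siNC, at 195, 200 and 184 CPM with siZIP7_1 and at 149, 137 and 147 CPM with siZIP7_2. Its groups did not overlap, and unlike HERPUD1 it was highest with siZIP7_1. The log2 fold change was 1.17 ± 0.051 with siZIP7_1 (adjusted p = 3.58e-18) and 0.75 ± 0.052 with siZIP7_2 (adjusted p = 9.72e-14), and it was lower with siZIP7_2 than with siZIP7_1 by a log2 difference of −0.42 ± 0.050 (adjusted p = 1.07e-08).

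OS9 (ENSG00000135506, chr12:57693955-57721557, plus strand), which hands glycosylated clients to SEL1L, was at 162, 155 and 157 CPM with siNC, at 146, 148 and 151 CPM with siZIP7_1 and at 174, 162 and 175 CPM with siZIP7_2. The siZIP7_1 libraries lay just under the others, and the lowest siZIP7_2 and the highest siNC library both rounded to 162 CPM. The log2 fold change was −0.09 ± 0.046 with siZIP7_1 (adjusted p = 0.082) and 0.11 ± 0.046 with siZIP7_2 (adjusted p = 0.0338), and 0.20 between the siRNAs (adjusted p = 0.000292). The siZIP7_2 call was lost without a low-count filter (log2 0.057, adjusted p = 0.422) and when any of 7 of the 9 libraries was left out, among them every siNC library (adjusted p = 0.0562 to 0.115). AC025165.2, on the opposite strand, overlaps 13.5% of the exonic length of OS9, and the strand setting of the counting is not given in the sources used here.

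The derlins, rhomboid-like proteins of the channel, split by paralog. DERL1 (ENSG00000136986, chr8:123013164-123042423, minus strand) was at 130, 134 and 140 CPM with siNC, at 117, 124 and 114 CPM with siZIP7_1 and at 188, 182 and 194 CPM with siZIP7_2. Its pattern was that of SEL1L in direction, lower with siZIP7_1 and higher with siZIP7_2, without overlap between groups. The log2 fold change was −0.19 ± 0.048 with siZIP7_1 (adjusted p = 0.000968) and 0.48 ± 0.048 with siZIP7_2 (adjusted p = 3.13e-10), with 0.67 between the siRNAs (adjusted p = 2.07e-13).

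DERL2 (ENSG00000072849, chr17:5471251-5486811, minus strand) was at 47.9, 52.4 and 51.9 CPM with siNC, at 73.1, 77.4 and 74.0 CPM with siZIP7_1 and at 77.5, 72.0 and 77.3 CPM with siZIP7_2. As with SYVN1, both siZIP7 groups lay above siNC and overlapped each other. DERL2 rose by 0.56 on the log2 scale with siZIP7_1 (adjusted p = 1.18e-10) and by 0.58 with siZIP7_2 (adjusted p = 5.70e-11), and the difference between the siRNAs was 0.015 with a 95% interval of −0.09 to 0.12.

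DERL3 (ENSG00000099958, chr22:23834503-23839128, minus strand), a derlin best known from secretory tissue, was close to the detection limit. It had 22, 11 and 22 reads with siNC, 4, 6 and 13 with siZIP7_1 and 10, 13 and 7 with siZIP7_2. On the CPM scale the siNC libraries (0.473 to 0.799 CPM) lay above the siZIP7_1 (0.146 to 0.408 CPM) and siZIP7_2 libraries (0.269 to 0.428 CPM). The fitted log2 fold change was −1.41 ± 0.37 with siZIP7_1 (adjusted p = 0.00142) and −0.92 ± 0.35 with siZIP7_2 (adjusted p = 0.0195). The siZIP7_2 call was lost with DESeq2 (adjusted p = 0.0861) and without siNC library 1 (0.0713), siNC library 3 (0.0764) or siZIP7_2 library 3 (0.087), all as adjusted p. SMARCB1, on the opposite strand, overlaps 77% of the exonic length of DERL3, so that the DERL3 counts depend on the strand setting of the counting.

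SELENOS (ENSG00000131871, chr15:101270817-101277500, minus strand), the selenoprotein that tethers VCP to the derlins, was at 54.6, 58.4 and 53.8 CPM with siNC, at 75.3, 78.4 and 75.3 CPM with siZIP7_1 and at 79.5, 71.1 and 76.7 CPM with siZIP7_2. Both siZIP7 groups lay above siNC and overlapped each other. It rose by 0.46 on the log2 scale with siZIP7_1 (adjusted p = 8.14e-09) and by 0.45 with siZIP7_2 (adjusted p = 1.18e-08). The siRNAs differed by −0.012, with a 95% interval of −0.12 to 0.094.

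**Figure D2:**
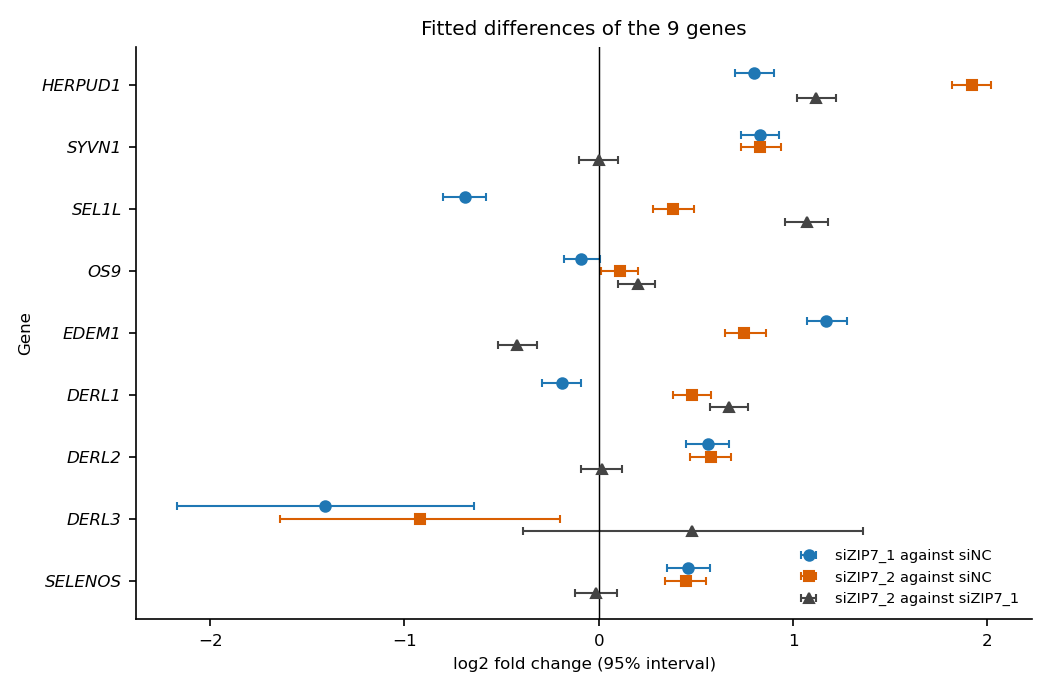
Fitted log2 fold changes of the 9 genes (horizontal axis) with 95% intervals, for siZIP7_1 against siNC (circles), siZIP7_2 against siNC (squares) and siZIP7_2 against siZIP7_1 (triangles), the first pair sharing the siNC libraries. The squares reach furthest for HERPUD1 (1.92), the circles for EDEM1 among the rises (1.17), the triangles of SYVN1, DERL2 and SELENOS lie at 0, and the DERL3 intervals are the widest.

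Counted together, 5 of the 9 genes were higher and 3 lower with siZIP7_1, and 8 were higher and 1 lower with siZIP7_2, at an adjusted p-value under 0.05. These counts stand against a large response of the whole transcriptome, since 70.7% of all tested genes were called with siZIP7_1 (34.8% higher, 35.9% lower) and 77.8% with siZIP7_2 (38.5% higher, 39.3% lower). The median log2 fold change of the 9 genes was 0.46 with siZIP7_1 and 0.48 with siZIP7_2, beside −0.0069 and −0.0018 over all genes. Between the siRNAs, 4 of the 9 were higher with siZIP7_2 (HERPUD1, SEL1L, DERL1 and OS9), 1 lower (EDEM1) and 4 not called, with 78.7% of all genes called (38.1% higher, 40.6% lower). In a test against a 1.8-fold change, EDEM1 alone of the 9 passed with siZIP7_1 (16.9% of all genes), HERPUD1 alone with siZIP7_2 (24.7%), and HERPUD1 and SEL1L between the siRNAs (28.2%).

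To compare genes with each other, CPM was divided by the exonic length of each gene (RPKM, per kilobase of the joined exons of all its transcripts). The order of genes and the ratios between them depend on this length, and the transcripts present may be shorter. In the siNC libraries OS9 was the most abundant (30.6 ± 0.654 RPKM, SD, n = 3). SYVN1 (18.5 to 19.5 RPKM) and DERL1 (18.3 to 19.8 RPKM) followed with overlapping ranges, then HERPUD1 (16.4 to 16.8 RPKM), then SELENOS (14.3 to 15.5 RPKM) and SEL1L (13.8 to 15.7 RPKM), which also overlapped. EDEM1 (12.7 ± 0.689 RPKM), DERL2 (7.50 to 8.20 RPKM) and DERL3 (0.124 to 0.210 RPKM) were lower still.

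With siZIP7_1 the order changed so that SYVN1 led (32.7 to 35.1 RPKM), ahead of HERPUD1 (28.0 to 30.5 RPKM), OS9 (28.3 to 29.2 RPKM) and EDEM1 (27.3 to 29.6 RPKM), whose ranges overlapped, and SEL1L fell below DERL2 (8.48 to 9.53 against 11.4 to 12.1 RPKM). With siZIP7_2 HERPUD1 led at 59.2 to 65.1 RPKM, well above SYVN1 (31.9 to 35.6 RPKM) and OS9 (31.3 to 33.9 RPKM). The summed level of the 9 genes was 134 to 137 RPKM with siNC, 177 to 179 RPKM with siZIP7_1 and 217 to 236 RPKM with siZIP7_2. HERPUD1 made up 12.3% ± 0.228 of that sum with siNC, 16.2% ± 0.822 with siZIP7_1 and 27.4% ± 0.189 with siZIP7_2 (SD, n = 3).

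Ratios within a library show where the partners parted. HERPUD1 stood to SYVN1 as 0.868 ± 0.0266 with siNC, 0.850 ± 0.0448 with siZIP7_1 and 1.84 ± 0.0152 with siZIP7_2 (SD of RPKM ratios, n = 3), so that the siNC and siZIP7_1 ranges overlapped and siZIP7_2 stood apart. The ratio of SEL1L to SYVN1 was 0.763 ± 0.0724, 0.266 ± 0.0227 and 0.558 ± 0.0204 in the same order, lowest with siZIP7_1 and without overlap. HERPUD1 to SEL1L went from 1.14 ± 0.0737 with siNC to 3.21 ± 0.340 and 3.31 ± 0.0992 with the siZIP7 siRNAs, which overlapped each other. Among the derlins, DERL2 held 29.3% ± 0.723 of the summed RPKM with siNC, 41.2% ± 0.492 with siZIP7_1 and 30.7% ± 0.466 with siZIP7_2, and DERL1 nearly all of the rest. These ratios are descriptions of the same libraries as the fits and were not tested.

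**Figure D3:**
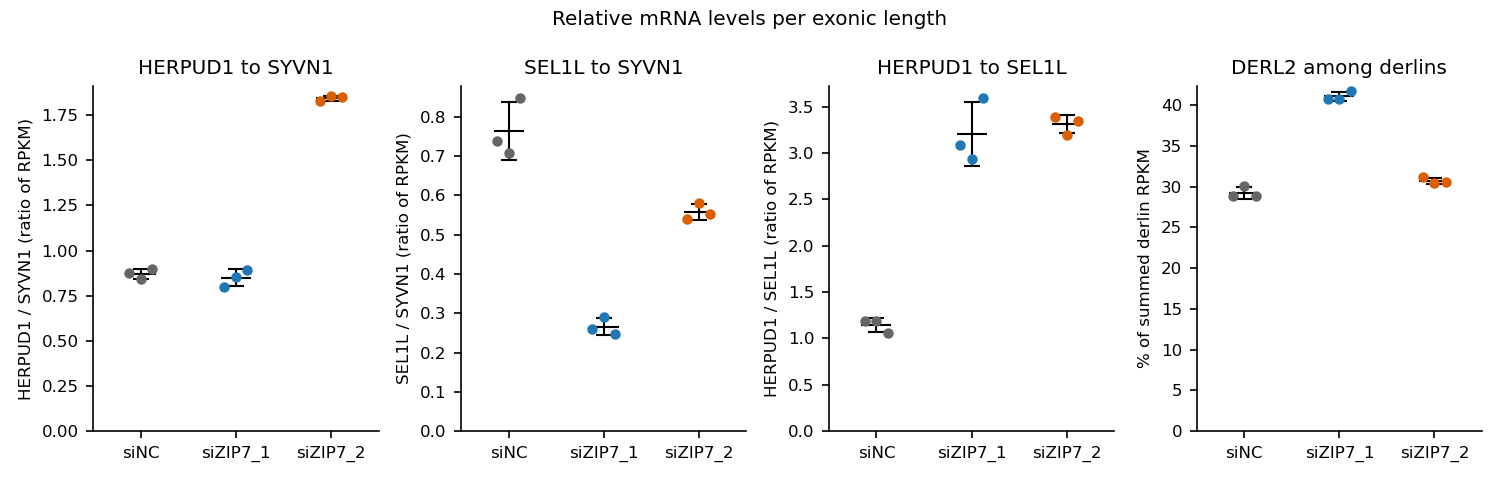
Ratios of RPKM between HERPUD1, SYVN1 and SEL1L, and the share of DERL2 in the summed RPKM of the derlins (%), per library on linear axes from 0 (3 points per siRNA group, mean and SD). HERPUD1 to SYVN1 is raised with siZIP7_2 alone (1.83 to 1.85), SEL1L to SYVN1 is lowest with siZIP7_1 (0.248 to 0.292), and the share of DERL2 is raised with siZIP7_1 (40.9% to 41.7%).

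The genes whose pattern over the 9 libraries was most like that of HERPUD1 were sought among the 10999 genes that averaged 5 CPM or more, by the root mean square difference in log2(CPM + 0.5) after the siNC mean of each gene was taken off. They were EPB41L1 (0.0515), which encodes a protein of the membrane skeleton, CYLD (0.0715), a deubiquitinase, PRKCH (0.0849), a protein kinase C, RNF24 (0.0915), a RING finger protein, and MAP2K3 (0.1), a kinase upstream of p38. CYLD, for example, averaged 46.9 ± 3.15, 79.7 ± 2.91 and 183 ± 4.40 CPM (SD, n = 3) in siNC, siZIP7_1 and siZIP7_2 libraries. None of the 5 is on the list of 94 genes, of which DNAJB9 came nearest, at place 15 (0.153). The likeness is a description of these 9 libraries, which share 3 conditions.

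Of the 94 genes of the longer list, all of which were tested, 51 were higher and 30 lower with siZIP7_1, and 51 were higher and 32 lower with siZIP7_2. As shares these are 54.3% and 31.9%, and 54.3% and 34%, beside 34.8% and 35.9%, and 38.5% and 39.3%, of all genes. The median log2 fold change was 0.18 and 0.16. Between the siRNAs, 30 of the 94 (31.9%) were higher and 37 (39.4%) lower with siZIP7_2, beside 38.1% and 40.6% of all genes, with a median of −0.0047. Leaving the 9 genes aside, the genes named from each role are those with the highest and lowest mean of both fold changes, unless said otherwise.

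**Figure D4:**
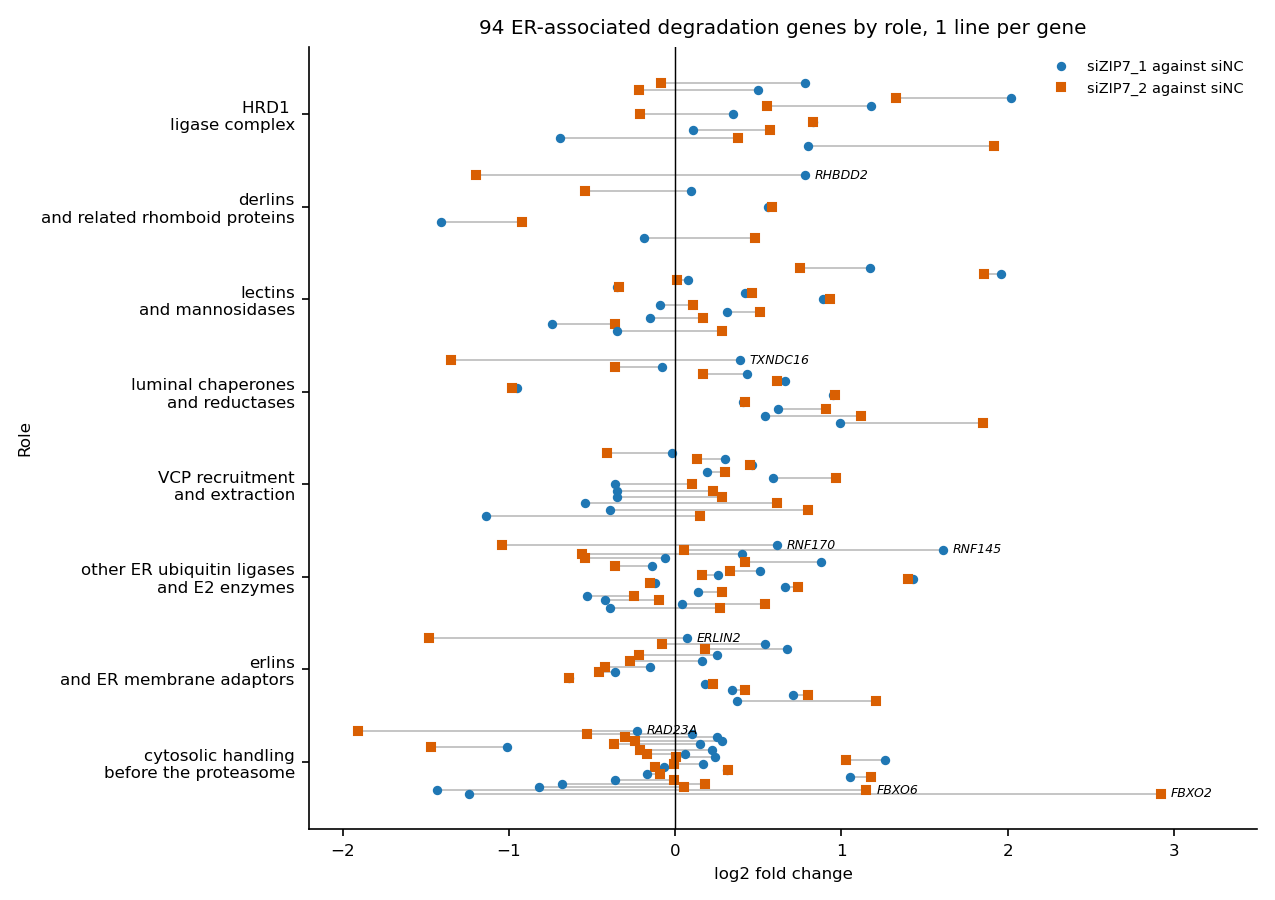
Log2 fold change against siNC (horizontal axis) of the 94 genes grouped by role, with a line joining siZIP7_1 (circles) and siZIP7_2 (squares) for each gene and symbols at the widest gaps. Among the luminal chaperones most pairs lie right of 0, while 6 of 11 genes of VCP recruitment were lower with siZIP7_1 and 9 of 11 higher with siZIP7_2. Of all tested genes, 35.9% were lower with siZIP7_1 and 38.5% higher with siZIP7_2.

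Of the 9 genes of the HRD1 complex, 7 were higher and 1 lower with siZIP7_1 (all genes: 34.8% and 35.9%). With siZIP7_2, 6 were higher and 2 lower (all genes: 38.5% and 39.3%). FAM8A1, a cofactor that promotes assembly of HRD1 with HERPUD1, averaged 13.9 ± 2.06, 56.9 ± 2.13 and 35.2 ± 0.686 CPM in siNC, siZIP7_1 and siZIP7_2 libraries, a rise of 2.02 and 1.33 on the log2 scale (adjusted p = 2.86e-20 and 1.08e-15). It was lower with siZIP7_2 than with siZIP7_1 (log2 −0.69, adjusted p = 7.53e-11), as was TXNDC11, a disulphide reductase that works with EDEM proteins, which rose by 1.18 and 0.55 (adjusted p = 1.12e-16 and 3.88e-09). AUP1, which recruits the ubiquitin-conjugating enzyme UBE2G2, was higher with siZIP7_1 (0.35, adjusted p = 5.33e-08) and lower with siZIP7_2 (−0.21, adjusted p = 0.000112), with HTRA2 over 18.3% of its exonic length. HERPUD2, the paralog of HERPUD1, was chosen after its values were seen. In the same order it averaged 32.8 ± 1.34, 56.3 ± 1.77 and 30.8 ± 1.22 CPM, and its log2 fold change was 0.78 with siZIP7_1 (adjusted p = 2.90e-13) and −0.087 with siZIP7_2 (adjusted p = 0.176), so that HERPUD1 and its paralog were ordered differently across the siRNAs. UBE2J1, the ubiquitin-conjugating enzyme of HRD1 and likewise chosen after its values were seen, rose by 0.50 with siZIP7_1 and fell by 0.22 with siZIP7_2 on the log2 scale (adjusted p = 1.32e-09 and 0.000631).

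Of the 5 derlins and related rhomboid proteins, 2 were higher and 2 lower with siZIP7_1 (all genes: 34.8% and 35.9%). The counts with siZIP7_2 were 2 higher and 3 lower (all genes: 38.5% and 39.3%). RHBDD2 was at 37.1, 36.7 and 39.4 CPM with siNC, at 65.6, 62.3 and 66.9 CPM with siZIP7_1 and at 19.0, 15.2 and 15.2 CPM with siZIP7_2. It was higher with siZIP7_1 (log2 0.78, adjusted p = 5.04e-12) and lower with siZIP7_2 (−1.20, adjusted p = 4.56e-15), the reverse of DERL1. RHBDD1, an intramembrane protease, had a log2 value of 0.093 with siZIP7_1 (adjusted p = 0.213) and fell by 0.54 with siZIP7_2 (adjusted p = 5.69e-08).

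The 11 lectins and mannosidases gave 5 higher and 4 lower with siZIP7_1 (all genes: 34.8% and 35.9%). They gave 8 higher and 2 lower with siZIP7_2 (all genes: 38.5% and 39.3%). The mannosidase MAN1A1 was at 15.8 ± 1.28, 29.2 ± 1.58 and 30.1 ± 0.414 CPM with siNC, siZIP7_1 and siZIP7_2 (log2 0.89 and 0.93, adjusted p = 2.40e-12 and 7.50e-13). Its relative MAN1C1 rose by 1.96 and 1.86 on the log2 scale, but from 0.229 ± 0.109 CPM (adjusted p = 1.51e-05 and 3.74e-05). UGGT1, the folding sensor that puts glucose back on unfolded glycoproteins, fell by 0.74 and 0.36 (adjusted p = 5.06e-14 and 1.19e-07), from 134 ± 5.29 CPM.

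Of 10 luminal chaperones and reductases, 8 were higher and 1 lower with siZIP7_1 (all genes: 34.8% and 35.9%). With siZIP7_2, 7 were higher and 3 lower (all genes: 38.5% and 39.3%). DNAJB9, a co-chaperone of BiP and known target of XBP1, averaged 21.3 ± 1.86, 42.5 ± 2.98 and 76.8 ± 7.59 CPM in siNC, siZIP7_1 and siZIP7_2 libraries. It rose by 0.99 and 1.85 on the log2 scale (adjusted p = 9.40e-13 and 2.42e-19), and by 0.85 more with siZIP7_2 than with siZIP7_1 (adjusted p = 1.67e-12). SDF2L1 rose by 0.95 and 0.96 (adjusted p = 2.56e-12 and 1.73e-12), and FOXRED2, a flavoprotein that binds SEL1L, fell by 0.95 and 0.98 (adjusted p = 2.63e-15 and 1.32e-15). HSPA5, HSP90B1 and CRELD2, whose promoters hold ERSE, were also chosen after their values were seen. HSPA5 rose by 0.54 and 1.12 (adjusted p = 1.40e-09 and 1.53e-16), HSP90B1, the ER member of the HSP90 family, by 0.43 and 0.17 (adjusted p = 1.35e-08 and 0.00417), and CRELD2, a secreted ER stress protein, by 0.41 and 0.42 (adjusted p = 6.05e-07 and 4.17e-07).

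The order between the siRNAs thus varied among genes with an ER stress element. HERPUD1 and HSPA5 were higher with siZIP7_2 than with siZIP7_1, HSP90B1 was lower (log2 −0.26, adjusted p = 3.16e-05), and SDF2L1 and CRELD2 differed by 0.011 and 0.0066 with 95% intervals of −0.13 to 0.15 and −0.11 to 0.13. Of the 14 tested genes of the genome with ERSE-II in the window, 5 were higher and 2 lower with siZIP7_1, and 4 were higher and 8 lower with siZIP7_2. Of the 16 with ERSE, 8 were higher and 5 lower with siZIP7_1, and 10 were higher and 3 lower with siZIP7_2. Over all tested genes the shares were 34.8% higher and 35.9% lower with siZIP7_1, and 38.5% and 39.3% with siZIP7_2.

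The 11 genes of VCP recruitment and extraction gave 4 higher and 6 lower with siZIP7_1 (all genes: 34.8% and 35.9%). Against this, they gave 9 higher and 1 lower with siZIP7_2 (all genes: 38.5% and 39.3%). SELENOS was among the higher genes with each siRNA. UBXN6, a VCP cofactor, rose by 0.59 and 0.97 on the log2 scale (adjusted p = 6.63e-12 and 5.67e-17), with other genes over 28.6% of its exonic length, and SELENOK, a selenoprotein that binds the derlins, by 0.19 and 0.30 (adjusted p = 0.0136 and 0.000146). The siZIP7_1 call of SELENOK was lost without siNC library 1 (adjusted p = 0.113) or siZIP7_1 library 2 (adjusted p = 0.0542). The core of the extraction machine, VCP with UFD1 and NPLOC4, was chosen for its values, apart from NPLOC4, which the rule named. VCP was at 650, 669 and 642 CPM with siNC, at 510, 535 and 493 CPM with siZIP7_1 and at 749, 759 and 791 CPM with siZIP7_2. UFD1 was at 70.8, 64.1 and 63.3 CPM, then 45.8, 45.5 and 45.1 CPM, then 99.8, 106 and 96.9 CPM in the same order. NPLOC4 was at 351, 356 and 339 CPM, then 165, 152 and 158 CPM, then 381, 386 and 393 CPM. In each of these genes the siZIP7_1 libraries lay below and the siZIP7_2 libraries above siNC.

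The log2 fold changes with siZIP7_1 and siZIP7_2 were −0.35 and 0.23 for VCP (adjusted p = 1.21e-07 and 6.05e-05), −0.54 and 0.61 for UFD1 (5.39e-10 and 1.34e-11) and −1.14 and 0.15 for NPLOC4 (7.04e-19 and 0.00401), all as adjusted p in edgeR. The siZIP7_2 call of NPLOC4 was lost without a low-count filter (adjusted p = 0.095). SEL1L and DERL1 moved in these same directions.

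**Figure D5:**
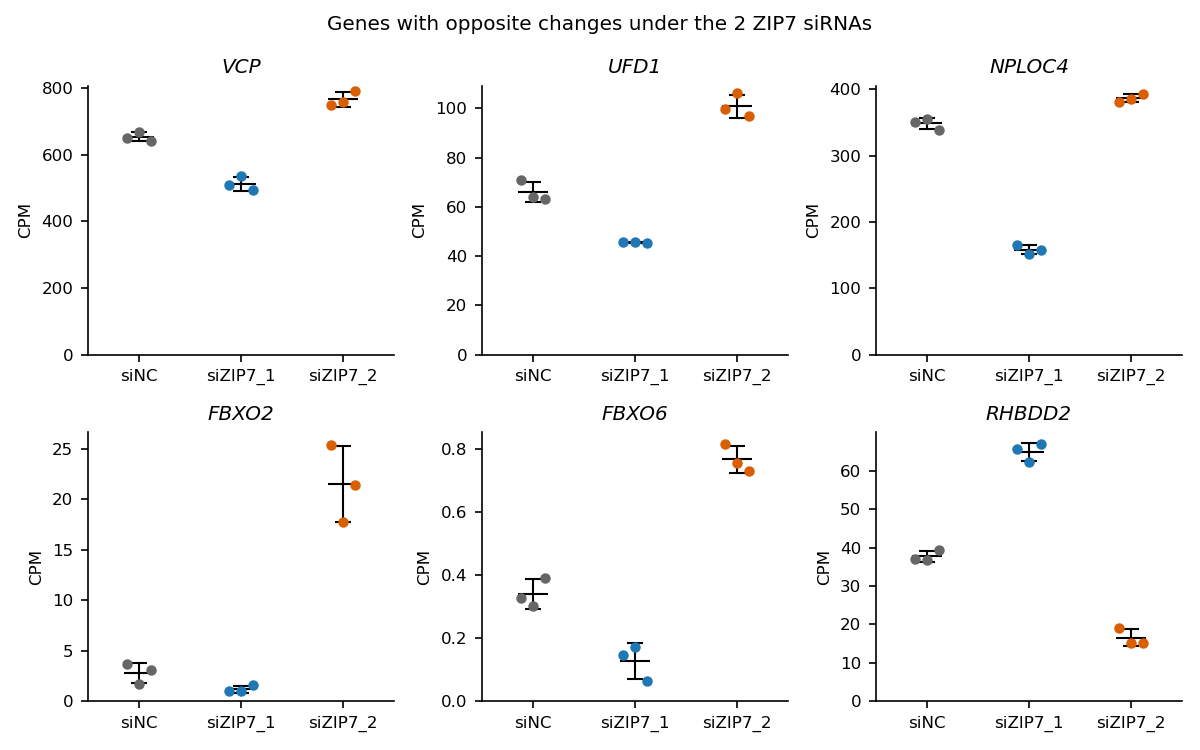
CPM per library (linear axis from 0, 3 points per siRNA group, mean and SD) of 6 genes outside the 9 that were called in opposite directions with the siZIP7 siRNAs, all but NPLOC4 and RHBDD2 picked for their values. VCP, UFD1, NPLOC4, FBXO2 and FBXO6 are lowest with siZIP7_1 and highest with siZIP7_2, and RHBDD2 has the reverse order.

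Of 16 other ER ubiquitin ligases and conjugating enzymes, 9 were higher and 5 lower with siZIP7_1 (all genes: 34.8% and 35.9%). The counts with siZIP7_2 were 8 higher and 6 lower (all genes: 38.5% and 39.3%). RNF103, an ER membrane ligase, rose by 1.43 and 1.40 on the log2 scale from 22.4 ± 2.29 CPM (adjusted p = 3.51e-17 and 4.99e-17), with other genes over 24.7% of its exonic length. RNF145, a ligase of sterol regulation, averaged 68.6 ± 2.11, 209 ± 8.67 and 71.3 ± 0.898 CPM in siNC, siZIP7_1 and siZIP7_2 libraries (log2 1.61 and 0.055, adjusted p = 4.64e-22 and 0.308). RNF121 fell by 0.53 and 0.25 (adjusted p = 4.33e-09 and 0.000300). Among 12 erlins and membrane adaptors, 7 were higher and 3 lower with siZIP7_1, and 5 were higher and 6 lower with siZIP7_2, beside the same shares of all genes. INSIG1 and INSIG2, which bring sterol-sensing clients to ligases, rose by 0.37 and 0.71 with siZIP7_1 (adjusted p = 8.32e-08 and 1.18e-09) and by 1.21 and 0.80 with siZIP7_2 (adjusted p = 3.91e-19 and 7.90e-11), and ERLIN2 fell by 1.48 with siZIP7_2 (adjusted p = 1.79e-19) but had a log2 value of 0.072 with siZIP7_1 (adjusted p = 0.220).

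Of 20 genes that handle clients in the cytosol before the proteasome, 9 were higher and 8 lower with siZIP7_1, and 6 were higher and 9 lower with siZIP7_2. These are 45% and 40%, and 30% and 45%, beside 34.8% and 35.9%, and 38.5% and 39.3%, of all genes. The deubiquitinase YOD1 rose by 1.26 and 1.03 on the log2 scale (adjusted p = 1.90e-16 and 1.83e-14), and USP13, another deubiquitinase, fell by 1.01 and 1.47 (adjusted p = 3.92e-15 and 1.20e-18). GET4, of the BAG6 complex, rose by 1.05 and 1.18 (adjusted p = 2.22e-11 and 1.38e-12), but other genes cover 80.8% of its exonic length and its value is uncertain. FBXO2 and FBXO6, which bind glycoproteins for a cytosolic ligase, were chosen after their values were seen. FBXO2 was at 3.63, 1.68 and 3.03 CPM with siNC, at 1.02, 0.962 and 1.57 CPM with siZIP7_1 and at 25.4, 17.8 and 21.4 CPM with siZIP7_2 (log2 −1.24 and 2.92, adjusted p = 6.02e-05 and 2.55e-16). FBXO6 had only 7 to 11 reads per library with siNC, 2 to 5 with siZIP7_1 and 19 to 23 with siZIP7_2 (log2 −1.43 and 1.15, adjusted p = 0.00805 and 0.00191), and its siZIP7_1 call was lost without siZIP7_1 library 3 (adjusted p = 0.0665).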

How the data were processed

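The deposited values are raw counts, whole numbers of reads that the authors assigned to each Ensembl gene, with no scaling. The submitters' processing notes name Trim Galore 0.4.1, FastQC 0.11.2, STAR, HTSeq 0.6.1 and DESeq2 1.16.1, and the genome build, annotation and strand setting are not given in the sources used here. Symbols, positions and exonic lengths came from GENCODE release 29 of GRCh38, by Ensembl identifier (58275 of 58395 matched).

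The analysis used edgeR 4.0.16 in R 4.3.3. TMM normalization, the low-count filter over the groups (16761 genes kept) and the quasi-likelihood test (Benjamini-Hochberg adjusted, threshold 0.05) were applied in 1 fit to all 9 libraries, which gave both siZIP7 groups against siNC and against each other. Intervals of log2 values are 95% intervals of this fit. Steps were tested on simulated data. As alternatives, DESeq2 1.42.0 replaced edgeR, size factors or the upper quartile replaced TMM, the filter was dropped or raised to 10 counts in all libraries, replicate number was a block, glmTreat tested against 1.8-fold, fits held only the groups compared, and each library was left out. Samples were grouped by their labels.

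The 9 genes, the longer list, its roles and the motifs were chosen with earlier results of these data known. From each role of the longer list, leaving the 9 genes aside, the text names the 2 genes with the highest and the 1 with the lowest mean of both log2 fold changes, plus genes said to be chosen later and the 5 genes most like HERPUD1. The BCV was 4.50%. A further leukocyte marker is not reported here.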

Additional observations from a re-analysis of the deposited data

Results flagged for a closer look

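Of the genes named above, 10 were called in opposite directions with the siZIP7 siRNAs, each against the same siNC libraries. The longer list holds 24 such genes of 94, and all tested genes hold 3140 of 16761. As log2 differences of siZIP7_2 against siZIP7_1, these were 1.07 for SEL1L, 0.67 for DERL1, 1.29 for NPLOC4, 0.58 for VCP, 1.15 for UFD1, 4.16 for FBXO2 and 2.58 for FBXO6, all higher with siZIP7_2. The reverse order was found for RHBDD2 (−1.98), UBE2J1 (−0.71) and AUP1 (−0.56). Genes with opposite calls must differ between the siRNAs, so these differences are descriptions and not tests. SLC39A7 itself was lower with siZIP7_2 than with siZIP7_1 (log2 −0.89, adjusted p = 4.89e-13 in edgeR). The part in these differences of the deeper knockdown, of other transcripts that either siRNA may reach and of the suppliers was not tested.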

How the results depend on the processing

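The directions of the called fold changes of the 9 genes held under all alternatives tried, and their calls too, apart from OS9 and DERL3 with siZIP7_2, as given above, from DERL3 with either siRNA where all libraries had to hold at least 10 counts, since it was then not tested, and from the test against a 1.8-fold change. That test called 2836, 4134 and 4725 of all genes for siZIP7_1 against siNC, siZIP7_2 against siNC and siZIP7_2 against siZIP7_1. In the same order it called 1, 1 and 2 of the 9 genes higher and 0, 0 and 0 lower, and 9, 11 and 7 of the 94 higher and 2, 7 and 7 lower. HERPUD1 with siZIP7_1 (log2 0.80) was not past it (adjusted p = 1). The count of the 9 lower with siZIP7_2, 1 for DERL3, was 0 with DESeq2 and 0 with that minimum of 10 counts. With each library left out in turn, HERPUD1 ranged from 0.76 to 0.82, 1.90 to 1.97 and 1.09 to 1.16 in the same 3 comparisons, the 9 genes gave 5, 7 to 8 and 4 higher and 3, 0 to 1 and 1 lower, and the 94 gave 49 to 52, 47 to 51 and 29 to 31 higher and 26 to 32, 29 to 33 and 36 to 38 lower, with 11291 to 11984, 12633 to 13360 and 12840 to 13458 genes called in all. Same-numbered libraries did not deviate together (correlations of −0.0919 to 0.118, 2 of 9 libraries nearest their own number), so that the numbers were not taken as pairs. The replicate block gave 11927, 13080 and 13242 calls and HERPUD1 at 0.80, 1.92 and 1.12. Differences between the siRNAs that were near 0 and not called changed sign. Without a low-count filter they were −0.045 for SYVN1, −0.034 for DERL2, −0.008 for MAN1A1, −0.038 for SDF2L1 and −0.042 for CRELD2. For SELENOS, FOXRED2 and RNF103 they were 0.023, 0.0074 and 0.012 with DESeq2, 0.023, 0.0074 and 0.011 with its size factors in edgeR, 0.069, 0.052 and 0.058 with upper-quartile normalization and 0.039, 0.024 and 0.028 with at least 10 counts, and SELENOS was at 0.0088 in a fit to the groups compared. With single libraries left out they ran from −0.032 to 0.049 (SYVN1), −0.012 to 0.050 (DERL2), −0.045 to 0.033 (SELENOS), −0.28 to 0.012 (MAN1C1), −0.0064 to 0.074 (MAN1A1), −0.048 to 0.060 (SDF2L1), −0.065 to 0.037 (RNF103) and −0.032 to 0.031 (CRELD2). Upper-quartile normalization moved the median of all genes by 0.11 with siZIP7_2, put HERPUD2 there at 0.019 and called RNF145 higher (0.16, adjusted p = 0.00254), as did the minimum of 10 counts (0.13, adjusted p = 0.0152). The cause of these changes was not tested. Single libraries decided few other calls, among them SELENOK and FBXO6 with siZIP7_1 as given above. Of the 5 genes most like HERPUD1, 4 were shared with a pseudocount of 0.1 CPM and 5 with a minimum mean of 1 CPM. Depth limits DERL3, FBXO6 and MAN1C1.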
